A study of Homo sapiens with 4 samples.

Results

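The genes described here encode the proteins of the mitochondrial ribosome. They were taken as every GENCODE protein-coding gene whose symbol is MRPL or MRPS followed by a number and, for a few, a letter A to C, together with DAP3, a ribosomal protein of the small subunit that carries an older name. This gave 79 genes of the 64252 gene IDs in the count table, and all 79 were among the 18817 genes tested. RNA-seq was done on cells of the J.gamma1 line, derived from Jurkat, a human line of T-cell acute lymphoblastic leukaemia, and known for its lack of the signalling enzyme PLCG1. The treated group received 10 µM FB23-2, an inhibitor of FTO, which is an enzyme that removes the N6-methyladenosine mark from RNA. The control group received DMSO at under 0.1%, and both were collected at 48 h, with 2 independent biological replicates per group. All libraries come from 1 cell line, so the values describe that line only.

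The mitochondrial ribosome translates the mRNAs that the mitochondrial genome encodes, which are core subunits of the respiratory chain and of ATP synthase. Its rRNAs are transcribed inside the organelle, whereas its proteins are encoded in the nucleus, made in the cytosol and imported. Compared with the bacterial ribosome from which it descends, it has less rRNA and many added proteins. Its proteins thus divide into homologues of bacterial ribosomal proteins and proteins added in mitochondria. MYC, PGC-1 family coactivators and the factors NRF1 and GABP are known regulators of nuclear genes for mitochondrial proteins.

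The control libraries held 24615359 and 34897961 counts and the FB23-2 libraries 37804516 and 33983246. A floor of 3 counts equals 0.0785 to 0.125 CPM (counts scaled to a common library size). Of 16 T-lineage marker genes, 16 reached at least 1 CPM in every library, and their summed level was 2150 and 2070 CPM with FB23-2 and 2640 and 2630 CPM in control. Of 14 markers of other cell types, 4 reached 1 CPM in every library, and the summed level was 56.9 and 54.8 CPM with FB23-2 and 58.2 and 50.3 CPM in control. The part of these markers in the results was not tested. FTO RNA stood at 62.8 and 60.8 CPM with FB23-2 and 56.0 and 55.9 CPM in control (edgeR adjusted p = 0.0737), which says nothing of the enzyme's activity. PLCG1 RNA was present in every library, at 295 and 291 CPM with FB23-2 and 265 and 265 CPM in control (0.14 ± 0.04, edgeR adjusted p = 0.0125), and RNA alone does not show whether the protein is lacking.

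RNA of the mitochondrial ribosomal protein genes was lower in the cells given FB23-2. Of the 79 genes, 52 fell and 2 rose by edgeR's quasi-likelihood test at a Benjamini-Hochberg adjusted p under 0.05, and 25 were not called. The shares were 65.8% lower and 2.53% higher, against 20.3% lower and 21.8% higher over all tested genes. Their median log2 fold change was -0.33, a level of 79.5% of control, and single genes ranged from -1.12 to 0.28. The median was 0.00 over all tested genes and 0.05 over the 6629 protein-coding genes whose level lay in the middle 90% of the range of these genes.

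The groups separated for most members. For 61 genes both FB23-2 libraries lay below both control libraries, for 6 genes they lay above, and for 12 genes the groups overlapped. Over all tested genes 34.5% lay below and 36.3% above. Of the 79 genes, 17 (21.5%) were both called lower and at least 1.5-fold lower, against 9.61% of all tested genes. Called lower and at least 2-fold lower were 4 (5.06%), which is near the 4.46% of all tested genes. CPM values are shares of a library, and in bulk RNA fewer cells of a type and less RNA per cell cannot be told apart.

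**Figure D1:**
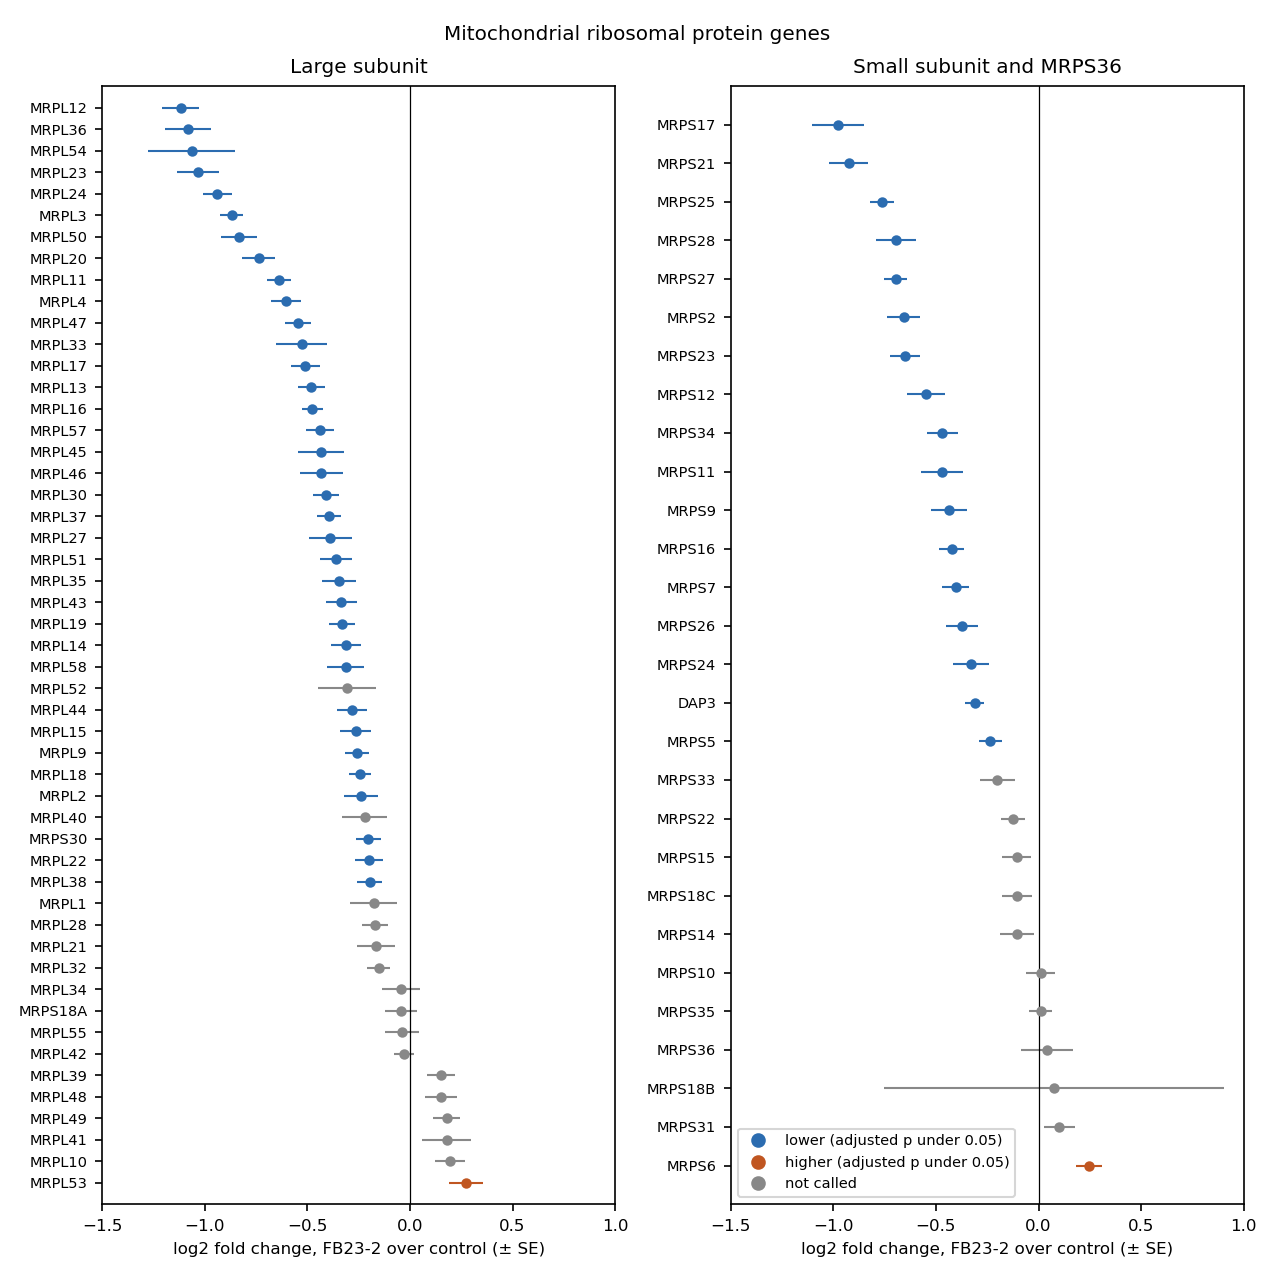
Log2 fold change of each of the 79 genes, FB23-2 over control, with its standard error (horizontal bar), ordered within the large subunit (left) and the small subunit with MRPS36 (right). Colour marks the 52 genes called lower, the 2 called higher and the 25 not called. Values run from -1.12 (MRPL12) to 0.28 (MRPL53), and MRPS18B has by far the widest error.

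**Figure D2:**
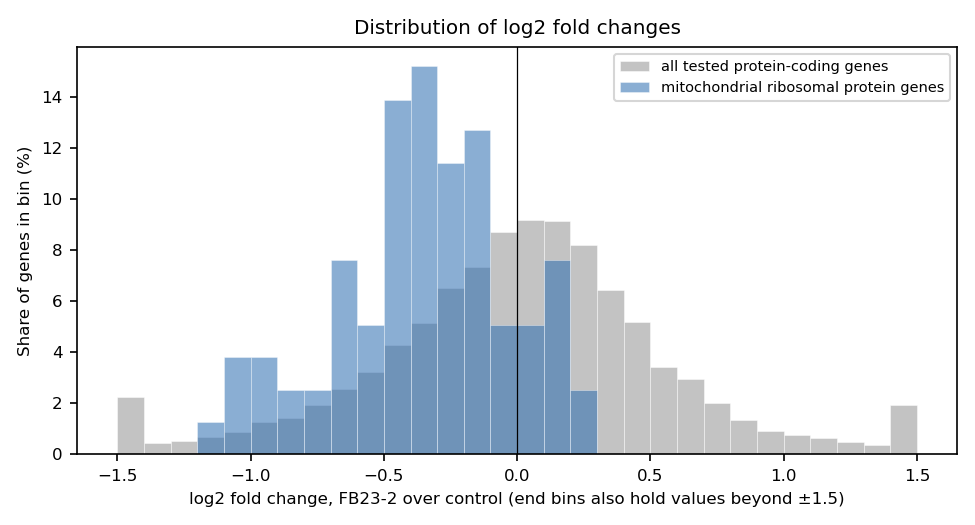
Share of genes (vertical axis, %) by log2 fold change in bins of 0.1 (horizontal axis) for the 79 genes and for all 13451 tested protein-coding genes. The bulk of the mitochondrial ribosomal protein genes lies left of 0, with a median of -0.33 against 0.03.

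The lowest value belonged to MRPL12 (bL12m), which forms the flexible stalk that recruits translation factors and has also been reported to bind the mitochondrial RNA polymerase. MRPL12 (ENSG00000262814, chromosome 17, 81703357 to 81707526 of hg38, plus strand) stood at 27.4 and 23.1 CPM with FB23-2 and in control at 53.1 and 56.4 CPM. Both treated libraries were at about the same low level and both controls at about the same high one. Its log2 fold change was -1.12 ± 0.09 (SE; edgeR adjusted p = 1.35e-05), which is 46.1% of the control level. In the annotation 68.2% of its exon bases also belong to ENSG00000262660, a gene on the same strand with 0 counts in every library.

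MRPL36 (bL36m), a very small protein of the large subunit, stood at 9.76 and 8.91 CPM with FB23-2 and at 19.3 and 20.2 CPM in control, a log2 fold change of -1.08 ± 0.11 (adjusted p = 6.46e-05 by edgeR). MRPL23 (uL23m), which lines the opening where the new polypeptide leaves, stood at 10.5 and 10.4 CPM against 21.8 and 21.2 CPM in control (-1.03 ± 0.10). In both genes the replicates lay close together and the groups far apart. MRPL54 (mL54), a protein found only in mitochondria, fell by 1.06 on the log2 scale with a wider error of 0.21. Its libraries read 8.87 and 5.82 CPM with FB23-2 and 17.7 and 13.8 CPM in control, so the replicates of each group differed but did not reach those of the other.

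MRPL3 (uL3m), which reaches towards the peptidyl transferase centre, had the highest level per kilobase of transcript among the 79 genes. It stood at 102 and 93.4 CPM with FB23-2 and at 185 and 172 CPM in control (log2 fold change -0.87 ± 0.06, edgeR adjusted p = 4.3e-06). That was the smallest adjusted p among the members. MRPL24 (uL24m) read 31.3 and 30.0 CPM against 61.1 and 56.8 CPM in control (-0.94 ± 0.07), and like MRPL23 it sits at the exit site.

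In the small subunit the lowest values were those of MRPS17 (uS17m), which binds rRNA, and of MRPS21 (bS21m). MRPS17 stood at 13.9 and 11.3 CPM with FB23-2 and at 27.1 and 23.1 CPM in control (log2 fold change -0.98 ± 0.13, edgeR adjusted p = 0.000257). MRPS21 stood at 41.0 and 36.5 CPM against 80.4 and 67.8 CPM (-0.93 ± 0.09, adjusted p = 0.00011). In each, both treated libraries were below both controls by more than the replicates differed.

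The remaining genes of the 14 lowest were of either ancestry. MRPL50 (-0.83 ± 0.09), MRPS25 (-0.76 ± 0.06) and MRPS27 (-0.70 ± 0.06) are found only in mitochondria. MRPL20 (-0.74 ± 0.08), MRPS28 (-0.70 ± 0.10) and MRPS2 (-0.66 ± 0.08) have bacterial homologues. MRPS25 was the most even of these, at 45.3 and 45.2 CPM with FB23-2 and 77.5 and 76.1 CPM in control, but it shares 22.2% of its exon bases with NR2C2 on the opposite strand. The strand setting of the counting is not given in the sources used here, so reads of such genes cannot be told apart. Each of the 14 lowest passed under all 13 alternative settings of the processing, and 9 of the 79 genes were lower in a test against a change of 1.5-fold, as were 3.6% of all tested genes. They were MRPL12, MRPL24, MRPL3, MRPL36, MRPL23, MRPS21, MRPS25, MRPS17 and MRPL50.

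**Figure D3:**
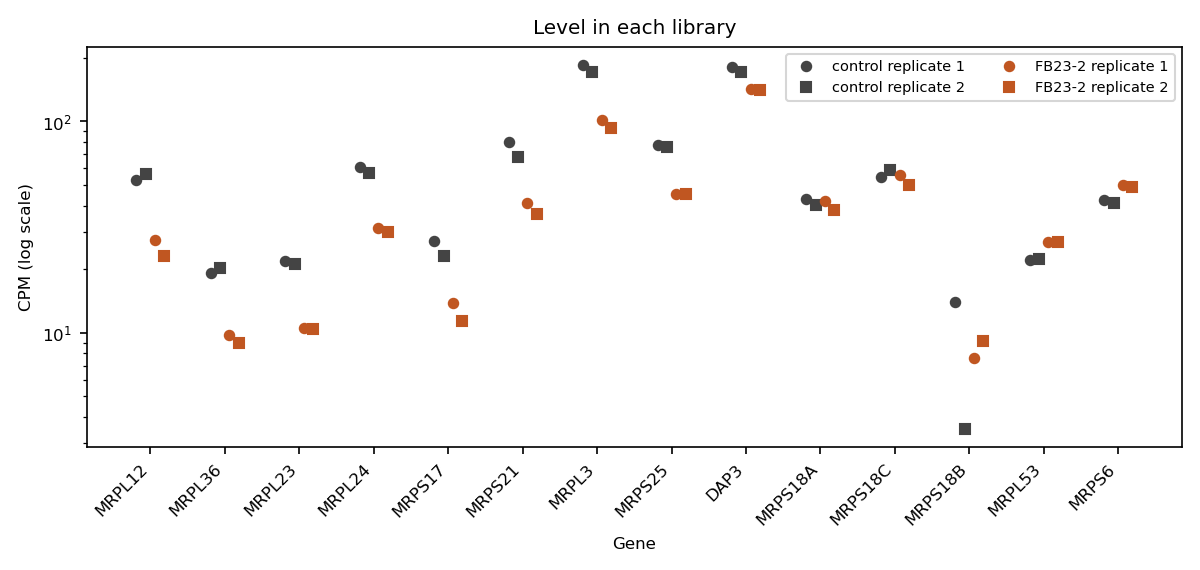
Level in each library (CPM, log scale) for 8 genes that fell (MRPL12 to MRPS25), for DAP3, for the MRPS18 genes and for the 2 that rose (MRPL53, MRPS6). Grey points are control and orange points FB23-2, with circles for replicate 1 and squares for replicate 2. The control libraries of MRPS18B lie at 13.9 and 3.52 CPM, either side of both treated libraries.

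The 2 genes that rose did so by little. MRPS6 (bS6m, chromosome 21, 34073224 to 34143034, plus strand), a small subunit protein, stood at 49.8 and 49.0 CPM with FB23-2 and 42.4 and 41.0 CPM in control (log2 fold change 0.25 ± 0.06, edgeR adjusted p = 0.0124). MRPL53 (mL53, chromosome 2, 74471958 to 74473322, minus strand), a protein near the stalk base, stood at 26.9 and 27.0 CPM against 22.2 and 22.3 CPM (0.28 ± 0.08, adjusted p = 0.0241). Neither call held in every setting. MRPL53 lost its call with DESeq2 (adjusted p = 0.0856) and with any 1 library left out (0.0751 to 0.111), and MRPS6 lost its call without either control (0.0523 for replicate 1, 0.0951 for replicate 2) and without FB23-2 replicate 1 (0.0773).

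Both also share exon bases with a same-strand gene that changed. MRPL53 shares 45.2% of them with CCDC142, which fell (-0.94), and MRPS6 shares 6.35% with SLC5A3, which rose (0.63). Of the 79 genes, 42 share exon bases with another annotated gene, 16 on the same strand and 30 on the opposite strand, and 12 share over 20%. Among those 42 genes 31 fell (73.8%) and 2 rose, with a median of -0.38. Among the other 37 genes, whose exons are theirs alone, 21 fell (56.8%), with a median of -0.26. Of all 79 genes 65.8% fell, and of all tested genes 20.3%. MRPL51, which fell (-0.36), shares 31.3% with NCAPD2 on the opposite strand, and NCAPD2 rose (0.28).

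In the large subunit 35 of 51 genes fell (68.6%) and 1 rose, with a median log2 fold change of -0.31. In the small subunit 17 of 27 fell (63.0%) and 1 rose, with a median of -0.37. Both shares are near the 65.8% of all 79 genes, and 20.3% of all tested genes fell. Summed over the genes of a subunit, the large subunit took 2188 and 2071 CPM with FB23-2 and 2756 and 2639 CPM in control, which is 78.9% of control. The small subunit took 1293 and 1232 CPM against 1613 and 1565 CPM, which is 79.4% of control. The ratio of the large to the small sum was 1.69 and 1.68 with FB23-2 and 1.71 and 1.69 in control. The sums are given without a test, since an exact permutation test of 2 libraries against 2 cannot go below p = 1/3.

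**Figure D4:**
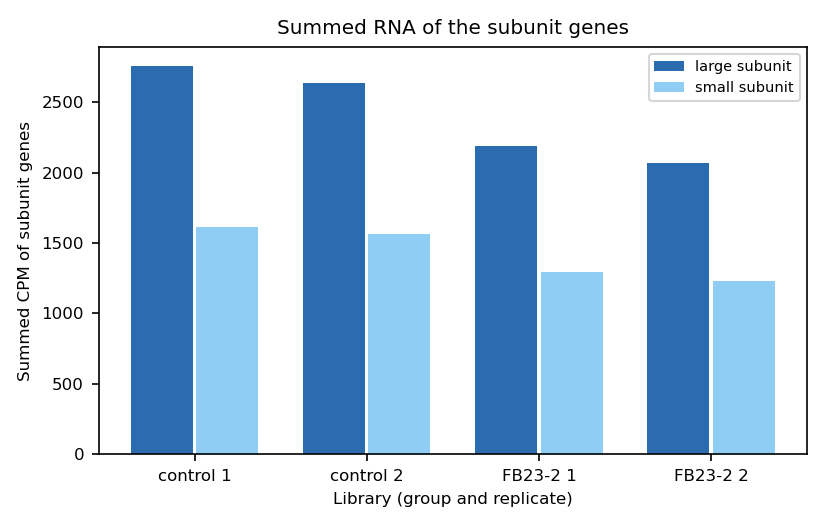
Summed CPM of the 51 large subunit and 27 small subunit genes in each library, 1 bar per subunit and library. Both treated libraries are lower than both controls for either subunit (2188 and 2071 against 2756 and 2639 CPM for the large one).

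Among the 46 genes with a bacterial homologue 34 fell (73.9%) and 1 rose, with a median of -0.40. Of the 32 genes with the prefix m 18 fell (56.2%) and 1 rose, with a median of -0.29. Over all 79 genes 65.8% fell, and over all tested genes 20.3%. This division follows the unified names, in which the prefixes u and b mark bacterial homologues and m the remaining proteins. The m class includes MRPS18A and MRPS18B, which are related to a bacterial protein, and MRPL58, which is related to peptide release factors. The difference between these classes was not tested. MRPS36 stands outside both, since later work assigns it to the 2-oxoglutarate dehydrogenase complex under the name KGD4. It read 16.3 and 13.3 CPM with FB23-2 and 14.2 and 14.6 CPM in control (log2 fold change 0.04 ± 0.13), so its groups overlapped.

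Counts by position in the ribosome rest on few genes per site, beside 65.8% lower among all 79 genes and 20.3% among all tested genes. The proteins around the polypeptide exit fell in 6 of 6 cases, with a median of -0.53. Besides MRPL23 and MRPL24 these were MRPL47 (-0.55 ± 0.06), MRPL17 (-0.51 ± 0.07), MRPL45 (-0.43 ± 0.11), which is known as the anchor of the ribosome to the inner membrane, and MRPL22 (-0.20 ± 0.07). MRPL22 lost its call with any 1 library left out (edgeR adjusted p from 0.0514 to 0.186). MRPL45 lost its call without FB23-2 replicate 1 (0.0681) or control replicate 2 (0.134). The genes of the peptidyl transferase region also all fell, namely MRPL3, MRPL16 (-0.48 ± 0.05) and MRPL2 (-0.24 ± 0.08). MRPL2 lost its call without control replicate 1 (0.234) or either FB23-2 replicate (0.0744 and 0.173). MRPL2 and MRPL22 also failed with library size scaling (0.0883 and 0.101), no filter (0.109 and 0.0959), DESeq2 (0.0586 and 0.0822) and limma-voom (0.0664 and 0.0538), and MRPL2 with removal of GC and length trends (0.0978).

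The stalk, where elongation factors bind, was divided. MRPL12 and MRPL54 were among the lowest of all members, and MRPL11 (uL11m), at the stalk base, fell from 81.9 and 78.6 CPM in control to 52.8 and 50.2 CPM with FB23-2 (-0.64 ± 0.06, edgeR adjusted p = 3.16e-05). MRPL10 (uL10m), the stem that holds MRPL12, stood at 55.3 and 55.8 CPM with FB23-2 and 52.0 and 45.6 CPM in control, a log2 fold change of 0.19 ± 0.07 (adjusted p = 0.0602 by edgeR). MRPL10 was therefore above control in both libraries without being called. It was called with library size scaling (edgeR adjusted p = 0.0234), the replicate block (0.0482) and removal of GC and length trends (0.0303). The call also arose without control replicate 1, at a log2 fold change of 0.27. MRPL53, described above, rose.

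In the central protuberance, the crown of the large subunit, 6 of 9 genes fell (66.7%), with a median of -0.22. That share is near the 65.8% of all 79 genes. MRPL18 (-0.24 ± 0.06) held in all 13 alternatives, whereas the other calls each failed with at least 1 library left out. MRPL46 (-0.43 ± 0.10) failed without control replicate 2 (edgeR adjusted p = 0.0972), and MRPL27 (-0.39 ± 0.10) without FB23-2 replicate 2 (0.0888) or control replicate 1 (0.0912). MRPL58 (-0.31 ± 0.09), which is related to peptide release factors, and MRPL38 (-0.20 ± 0.06) failed without either FB23-2 replicate or control replicate 2, with adjusted p of up to 0.118 and 0.24. MRPS30 (-0.20 ± 0.06), a large subunit protein despite its symbol, failed with any 1 library left out (0.0582 to 0.123). MRPL38 and MRPS30 also failed with library size scaling (0.0894 and 0.0726), no filter (0.0653 and 0.0577) and DESeq2 (0.0521 and 0.052). Removal of GC and length trends ended the calls of MRPL27 (0.0913), MRPL58 (0.0978) and MRPL38 (0.204). MRPL40 (-0.22 ± 0.11), MRPL55 (-0.04 ± 0.08) and MRPL48 (0.15 ± 0.08) were not called.

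In the small subunit, MRPS12 (uS12m) of the decoding centre fell from 24.8 and 24.8 CPM in control to 17.6 and 16.3 CPM with FB23-2 (-0.55 ± 0.09, edgeR adjusted p = 0.00118). The mRNA entry proteins MRPS24 (-0.33 ± 0.09) and MRPS5 (-0.24 ± 0.06) fell less. MRPS24 lost its call without FB23-2 replicate 2 (adjusted p = 0.0935) or control replicate 1 (0.089), and MRPS5 without control replicate 2 (0.0551). MRPS24 also failed with no filter (0.0605) and with removal of GC and length trends (0.151). DAP3 (mS29), a GTP-binding protein known for a role in cell death, was abundant and even, at 143 and 142 CPM with FB23-2 against control values of 181 and 172 CPM. Its log2 fold change was -0.31 ± 0.05 (adjusted p = 0.000519 by edgeR), which is 80.6% of control.

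Calls near the threshold show where the list of 52 ends. Just inside it lay MRPL2 (edgeR adjusted p = 0.0443), MRPL22 (0.0432), MRPL38 (0.0294) and MRPS30 (0.0273). Just outside lay MRPL28 (-0.17 ± 0.06, adjusted p = 0.0532), MRPL49 (0.18 ± 0.07, 0.0541), MRPL32 (-0.15 ± 0.06, 0.0551) and MRPL10 (0.0602). The sizes of change of these genes inside and outside the threshold differ little, but MRPL49 and MRPL10 lay above control and the others below. MRPL28 was called with upper quartile scaling (edgeR adjusted p = 0.0217), the filter at 1 CPM (0.0342) and the replicate block (0.0284). It was also called without FB23-2 replicate 1, at a log2 fold change of -0.27. MRPL49 and MRPL32 were each called in 3 of the 13 alternatives.

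The MRPS18 genes are related to 1 bacterial protein, and human mitochondria carry 3 versions of it, of which MRPS18A sits in the large subunit and MRPS18B and MRPS18C in the small one. None was called. MRPS18A stood at 42.1 and 38.2 CPM with FB23-2 and 42.8 and 40.1 CPM in control (log2 fold change -0.04 ± 0.08). MRPS18C stood at 55.8 and 49.8 CPM with FB23-2 and 54.7 and 58.7 CPM in control (-0.11 ± 0.07). In both the groups overlapped, and both share much exon sequence with a gene on the opposite strand, 47.0% with RSPH9 and 40.2% with ABRAXAS1.

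The value of MRPS18B depended on which control library was used. It stood at 7.64 and 9.20 CPM with FB23-2 and at 13.9 and 3.52 CPM in control, so that the controls differed 3.97-fold from each other, against at most 1.29-fold for any other member. The log2 fold change of 0.08 ± 0.83 (edgeR adjusted p = 0.958) became 1.24 (adjusted p = 0.00698) without control replicate 1 and -0.73 (0.0227) without control replicate 2. MRPS18B (ENSG00000204568) lies on chromosome 6, 30617709 to 30626395, in the major histocompatibility region, for which the genome build carries alternative haplotype sequences. In GENCODE release 29, 34 transcripts bear this symbol and 30 of them lie outside the primary assembly, whereas only MRPL45 (2), MRPS12 (4) and MRPS36 (4) among the other members have any there. The count table holds 7661 gene IDs outside the primary annotation, which the sources used here do not pair with symbols. Whether they share reads with MRPS18B was not tested.

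Levels per kilobase of the principal transcript differed widely within the ribosome, although its proteins are built in at equal numbers apart from the stalk. The highest were MRPL3 (80.8 CPM per kilobase over the 4 libraries), MRPL16 (76.4), DAP3 (76.3), MRPL51 (73.4), MRPL20 (72.2) and MRPL18 (70.8). The lowest were MRPS18B (5.59), MRPS33 (5.84) and MRPL50 (6.88). These levels depend on the length used, that of the longest principal transcript. It was 4241 bases for MRPS33, 3332 for MRPL50 and 15582 for MRPL42, against a median of 1462 for the members. Whether the cells make these long forms was not tested. The rank of MRPS18B is uncertain, since its control libraries read 9.1 and 2.29 CPM per kilobase and some of its reads may be counted under other gene IDs, which was not tested. The order of levels per kilobase was largely kept between groups (Spearman's rho = 0.918 across 79 genes, which share libraries). Fold changes had little relation to the control level per kilobase (rho = -0.154), GC content (-0.117) or transcript length (0.0918).

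Promoter sequences from RefSeq (GRCh38.p14) matched 70 of the 79 genes, with 87 promoters, and 6 are printed to show the windows of 4 genes that fell, 1 that was not called and 1 that rose. Each is the 250 bases before the transcription start on the gene's own strand, 5′ to 3′, with capitals for the letters of a motif searched on both strands. The motifs were the E-box CACGTG, bound by MYC and related factors, CCGGAAG of ETS factors such as GABP, AAGATGGCG of YY1, GGGCGG of SP factors, CCAAT, and the palindromic NRF1 consensus. MRPL12 (chr17:81703117-81703366, plus strand), MRPL36 (chr5:1799838-1800087, minus), MRPS21 (chr1:150293611-150293860, plus) and MRPL3 (chr3:131502972-131503221, minus) fell. MRPS18A (chr6:43687792-43688041, minus) was not called, and MRPS6 (chr21:34073328-34073577, plus) rose.
MRPL12: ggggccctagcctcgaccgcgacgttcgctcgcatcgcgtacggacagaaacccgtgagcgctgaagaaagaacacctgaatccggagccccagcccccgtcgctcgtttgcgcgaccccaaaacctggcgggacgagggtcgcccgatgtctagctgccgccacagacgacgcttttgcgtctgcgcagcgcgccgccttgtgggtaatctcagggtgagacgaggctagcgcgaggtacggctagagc
MRPL36: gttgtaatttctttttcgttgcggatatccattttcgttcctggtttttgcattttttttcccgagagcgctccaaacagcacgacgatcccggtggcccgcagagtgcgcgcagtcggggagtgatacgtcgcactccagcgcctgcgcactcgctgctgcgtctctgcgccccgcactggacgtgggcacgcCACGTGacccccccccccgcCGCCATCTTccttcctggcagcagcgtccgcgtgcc
MRPS21: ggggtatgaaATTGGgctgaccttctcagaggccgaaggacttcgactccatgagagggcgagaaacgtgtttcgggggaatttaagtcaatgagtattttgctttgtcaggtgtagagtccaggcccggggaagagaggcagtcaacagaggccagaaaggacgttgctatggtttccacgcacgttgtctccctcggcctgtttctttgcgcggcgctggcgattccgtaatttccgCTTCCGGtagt
MRPL3: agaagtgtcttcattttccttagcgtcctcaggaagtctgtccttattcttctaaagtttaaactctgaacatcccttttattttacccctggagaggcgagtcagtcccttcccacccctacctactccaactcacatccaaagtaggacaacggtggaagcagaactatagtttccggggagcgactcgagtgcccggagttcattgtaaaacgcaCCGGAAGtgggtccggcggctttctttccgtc
MRPS18A: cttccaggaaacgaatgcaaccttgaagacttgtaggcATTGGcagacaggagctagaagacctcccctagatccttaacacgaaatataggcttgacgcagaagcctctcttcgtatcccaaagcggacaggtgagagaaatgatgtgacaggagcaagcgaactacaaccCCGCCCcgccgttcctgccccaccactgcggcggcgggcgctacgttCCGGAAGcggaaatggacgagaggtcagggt
MRPS6: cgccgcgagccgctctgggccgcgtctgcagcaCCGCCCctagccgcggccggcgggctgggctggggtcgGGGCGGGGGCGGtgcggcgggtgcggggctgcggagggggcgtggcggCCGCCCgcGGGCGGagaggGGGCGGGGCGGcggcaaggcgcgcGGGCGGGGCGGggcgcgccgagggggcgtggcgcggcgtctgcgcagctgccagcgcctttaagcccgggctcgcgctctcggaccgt
The MRPL12 window holds none of these motifs, although its gene had the lowest log2 fold change. In MRPL36 an E-box starts 56 bases and a YY1 motif 36 bases before the start. An ETS motif lies 11 bases before the start in MRPS21, 32 in MRPL3 and 31 in MRPS18A, of which the last was not called. The MRPS6 window, with 84.8% G and C, holds 9 SP motifs, some of which overlap. A match is a run of letters and not evidence of binding.

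The shares that follow were searched over a longer stretch than the printed windows, which also takes in bases after the start. Over the 87 promoters the ETS motif was found in 37.9%, against 12.8% of the 22199 promoters of protein-coding genes and 10.3% of all promoters. The YY1 motif was found in 14.9%, against 2.41% and 1.75%. Shares of the other motifs were nearer to those of protein-coding promoters, at 60.9% against 56.3% for SP, 32.2% against 34.7% for CCAAT, 10.3% against 8.34% for the E-box and 1.15% against 1.5% for NRF1. Promoters of genes that fell and of the others held the ETS motif about as often, in 37.5% of 56 and 38.7% of 31, and likewise the E-box, in 10.7% and 9.68%. The YY1 motif stood in 12.5% and 19.4%, the SP motif in 55.4% and 71.0%, and CCAAT in 37.5% and 22.6%. Some genes have several promoters in the table, and these shares were not tested.

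**Figure D5:**
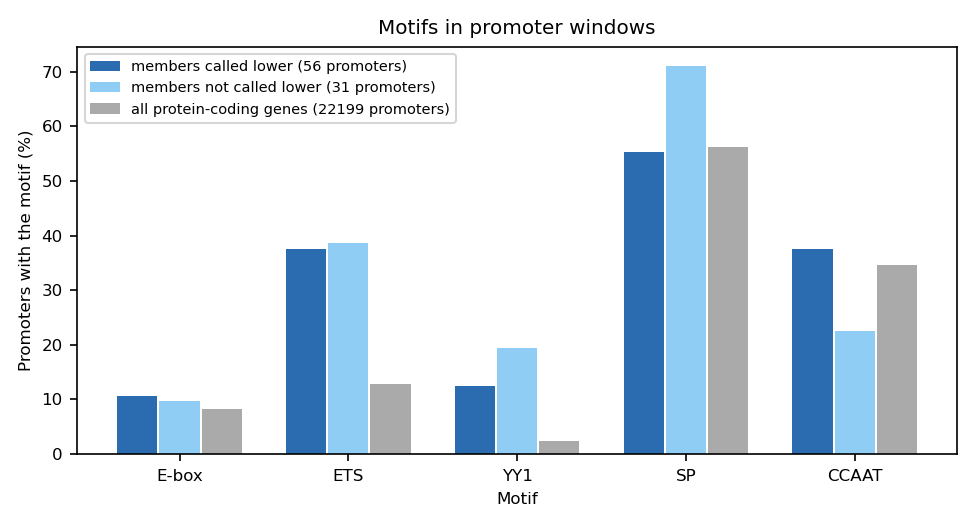
Share of promoters that hold each motif (vertical axis, %) for the members that fell (56 promoters), the other members (31) and all protein-coding genes (22199). The stretch searched also takes in bases after the start, unlike the printed windows. The ETS and YY1 bars of the mitochondrial ribosomal protein genes stand above those of protein-coding genes, whereas the E-box bars are close together.

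Many of these genes share a promoter region with a gene on the other strand. Starts here are the outer gene ends in GENCODE release 29, which can differ from the RefSeq starts of the printed promoters. For MRPL36 and MRPS6 the printed window lies inside the GENCODE gene span. Within 1000 bases of the GENCODE starts, 29 members have 30 such neighbours, and 27 neighbours that are not members were tested. Of these, 7 fell and 9 rose, with a median of 0.10. Over all tested genes 20.3% fell and 21.8% rose, and over tested protein-coding genes 23.4% and 27.5%. MRPL46 and MRPS11, whose starts lie 34 bases apart, both fell (-0.43 and -0.47), though each lost its call without control replicate 2 (edgeR adjusted p = 0.0972 and 0.0778).

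Some pairs moved together and others apart. TWNK, the mitochondrial DNA helicase beside MRPL43 (-0.33 ± 0.08), fell from 48.0 and 51.4 CPM to 14.6 and 15.4 CPM (-1.74). NDUFS6, a subunit of respiratory complex I beside MRPL36, fell (-0.43), as did TCP1, a chaperonin subunit beside MRPL18 (-0.77). EME1, a DNA repair endonuclease subunit whose start lies 6 bases from that of MRPL27, rose from 44.4 and 47.8 CPM to 77.6 and 75.5 CPM (0.73) while MRPL27 fell (-0.39). MRPL27 lost its call in the settings named above, whereas EME1 was called in all 13 alternatives. MRPL43 lost its call without FB23-2 replicate 2 (0.0504).

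The cytosolic ribosome carries a homologue of 27 of these proteins, which allows gene by gene pairs. In 20 pairs both genes fell, in 2 only the mitochondrial gene was called lower, in 3 only the cytosolic one, and in 2 neither. Over all tested genes 20.3% fell. The uncalled cytosolic genes include RPS23 (-0.60 ± 0.19), RPS20 (-0.70 ± 0.18) and RPS29 (-0.93 ± 0.51), whose errors were wide. The medians were -0.41 for the mitochondrial and -0.51 for the cytosolic genes. Across pairs the log2 fold changes tended to opposite order (Spearman's rho = -0.375, n = 27 pairs from the same 4 libraries), which was not tested. MRPL24 fell by 0.94 on the log2 scale, whereas its cytosolic homologue RPL26 changed by 0.04 ± 0.03 and was not called. MRPL10 was not called (0.19), whereas RPLP0 fell (-0.35 ± 0.03). MRPL3 (-0.87) and RPL3 (-0.57 ± 0.03) both fell.

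Genes that build the mitochondrial ribosome included both falls and a rise. Of 4 further ribosomal proteins with other symbols, 2 fell, PTCD3 (-0.44 ± 0.05) and GADD45GIP1 (-0.28 ± 0.06). Of 30 genes for assembly and rRNA maturation 16 fell and 1 rose, with a median of -0.25. These shares were 53.3% and 3.33%, against 20.3% and 21.8% of all tested genes. MRM1, which methylates the large mitochondrial rRNA, fell from 9.75 and 7.84 CPM to 2.09 and 2.22 CPM (-2.01 ± 0.21). C1QBP, a matrix protein linked to mitochondrial translation, fell from 259 and 247 CPM to 90.9 and 82.3 CPM (-1.54 ± 0.06), below any member. RPUSD4, an rRNA pseudouridine synthase (-1.03 ± 0.09), and the GTPase MTG1 (-0.90 ± 0.11) fell too. METTL15, a methyltransferase for the small mitochondrial rRNA, rose (0.35 ± 0.08), but lost its call with removal of GC and length trends (0.20, edgeR adjusted p = 0.0791).

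A list of 18 genes held mitochondrial translation factors and linked proteins, such as LRPPRC, SLIRP, OXA1L, PDF and METAP1D. Of these 18 genes 12 fell (66.7%, against 20.3% of all tested genes), with a median of -0.37. The elongation factor TSFM (-0.76 ± 0.09), the recycling factor MRRF (-0.74 ± 0.09) and the mRNA-binding LRPPRC (-0.66 ± 0.05) were among the lowest, as was SLIRP, the partner of LRPPRC (-0.91 ± 0.23). SLIRP lost its call without either FB23-2 replicate, with an adjusted p of up to 0.24 by edgeR, and with removal of GC and length trends (0.0781). The elongation factor TUFM fell from 225 and 228 CPM to 182 and 171 CPM (-0.36 ± 0.05). Of the transcripts the ribosome works with, the 2 mitochondrial rRNAs were not called, and 6 of 13 mitochondrial mRNAs fell and 4 rose, from -0.74 (MT-CYB) to 0.40 (MT-ND6). The mRNA shares were 46.2% lower and 30.8% higher, against 20.3% and 21.8% over all tested genes.

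The list of regulators covers nuclear and mitochondrial genes, and includes TFAM, TFB2M and POLRMT, which act on the mitochondrial genome. Among the 14 tested regulators, 12 fell and 1 rose, with a median of -0.46. These shares were 85.7% and 7.14%, against 20.3% and 21.8% of all tested genes. MYC fell from 367 and 366 CPM to 66.5 and 58.6 CPM (-2.55 ± 0.06). The coactivators PPARGC1B (-1.42 ± 0.11) and PPRC1 (-1.40 ± 0.08) fell as well, and TFB2M, a factor of mitochondrial transcription, fell by 0.93 on the log2 scale. NRF1 (-0.40 ± 0.09), TFAM (-0.38 ± 0.05) and GABPB1 (-0.53 ± 0.07) fell less. GABPA (-0.22 ± 0.06) lost its call without FB23-2 replicate 1 or either control replicate, with an adjusted p of up to 0.119 by edgeR, and with library size scaling (0.0576). ATF5, a factor of the mitochondrial stress response, rose from 17.5 and 17.5 CPM to 54.9 and 51.1 CPM (1.60 ± 0.08). PPARGC1A was too low to be tested.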

How the data were processed

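The values used are whole-number counts per gene, which the authors deposited as 1 table of 4 libraries without normalization. Per the labels' protocols, RNA came from Trizol extraction and libraries from an Illumina TruSeq RNA kit. The submitters' processing notes name HISAT2 2.2.0, StringTie and hg38. How alignments became counts, with which annotation and strand setting, is not given in the sources used here. Genes kept by filterByExpr (minimum count 10) were compared with the quasi-likelihood test of edgeR 4.0.16 after TMM scaling, in R 4.3.3, on groups only. P values were adjusted by Benjamini-Hochberg across the 18817 tested genes, with 0.05 as threshold, and the common dispersion gave a biological coefficient of variation of 10.5%. The SE was taken as the absolute log2 fold change divided by the root of F. CPM was computed after TMM scaling, and levels per kilobase use the longest principal transcript of GENCODE release 29. Symbols came from a separate name list and coordinates from GENCODE release 29 on the same build. The chi-square per degree of freedom over genes was 6.69 and 7.48 between replicates and 74.6 to 82.3 between groups, so no library was a copy of another. Floors of 3 counts cover counting error only.

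Alternatives were other scalings (DESeq2's size factors, upper quartile, library size), no filter, a filter at 1 CPM in 2 libraries, DESeq2 1.42.0, limma-voom (limma 3.58.1), a test against 1.5-fold, a replicate block, fold changes freed of trends with transcript GC and length, and leaving out each library. A fit with 1 control or 1 FB23-2 library assumes that it varies like the other group. The members, their roles and all gene lists were chosen with earlier results of these data known. Named genes were the 14 lowest and all higher calls, the 4 nearest the threshold on each side, the 6 highest and 3 lowest levels per kilobase, the MRPS18 genes, the members of structural sites, DAP3, members with overlaps, and from related lists the most changed and known regulators. Neighbouring genes, homologue pairs, transcripts outside the primary assembly, MRPS36, MRPS11, TUFM, GABPB1 and TFB2M were chosen after values were seen. A comparison of the MRPS18 proteins by sequence was not run, since no protein table was used here.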

Additional observations from a re-analysis of the deposited data

How the results depend on the processing

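The count of genes that fell was 41 to 55 over the scalings, filters, tools and left-out libraries tried, against 52, and 9 in the test against 1.5-fold. Over all tested genes 9.66% (no filter) to 25.4% (filter at 1 CPM) were lower in these settings, and 3.6% in the test against 1.5-fold. With 1 library left out the count was 41 to 49, against at most 16.8% of all tested genes. Of the 52 calls, 34 held in all 13 alternatives other than the test against 1.5-fold, and 10 of the other 18 failed only with a library left out. The count of genes that rose was 2 and became 5 with library size scaling, 1 with DESeq2, 0 in the test against 1.5-fold, 5 with removal of GC and length trends, and 0 to 2 with 1 library left out (0 without FB23-2 replicate 1 or control replicate 2, 1 without FB23-2 replicate 2). In these settings the share of all tested genes that rose was 24.6%, 18.0%, 2.31%, 19.8% and 14.6% to 17.4%. The median of -0.33 ranged from -0.28 (library size) to -0.38 (without FB23-2 replicate 1).

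Replicate numbers in the titles pair no cultures by label. Deviations of same-numbered libraries from their group means had a correlation of 0.167. With 2 libraries per group both pairs must give the same correlation, so this is 1 value. With the replicate block 54 genes fell and 4 rose, against 21.4% and 22.5% of all tested genes, and the median was -0.33. MRPL52 was called with the block (edgeR adjusted p = 0.00478).

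The direction of some uncalled genes depended on the setting. With library size scaling the log2 fold change was 0.0034 for MRPL34, 0.0178 for MRPL42, 0.0062 for MRPL55 and 0.0047 for MRPS18A. With removal of GC and length trends it was 0.059 for MRPL34, 0.038 for MRPL55, 0.0531 for MRPS18A, -0.0495 for MRPS10, -0.0453 for MRPS35 and -0.0375 for MRPS36. Upper quartile scaling gave -0.0301 for MRPS10 and -0.0295 for MRPS35, the filter at 1 CPM gave -0.0045 and -0.0039, and DESeq2 gave -0.0009 for MRPS10 and -0.0638 for MRPS18B. With 1 library left out the ranges were -0.1622 to 0.0481 for MRPL34, -0.1111 to 0.0098 for MRPL55, -0.1149 to 0.1108 for MRPS10, -0.1352 to 0.0271 for MRPS18A, -0.7304 to 1.24 for MRPS18B, -0.0087 to 0.1899 for MRPS31, -0.0463 to 0.0609 for MRPS35 and -0.1322 to 0.1774 for MRPS36. The cause was not tested. The alternatives for named genes outside the list were added after seeing the data.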

Other observations

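The 25 genes without a call were not all at the control level. MRPL52 (mL52), a large subunit protein, stood at 41.6 and 35.9 CPM with FB23-2 and 54.8 and 42.4 CPM in control, a log2 fold change of -0.31 ± 0.14 (edgeR adjusted p = 0.145). It was called by DESeq2 (adjusted p = 0.0424) and by edgeR without control replicate 2 (adjusted p = 0.0136). Its controls lay further apart than those of DAP3, which was called at a like log2 fold change. MRPL39 stood above control in both treated libraries, at 57.8 and 53.3 CPM against 51.8 and 48.7 CPM (0.15 ± 0.07, adjusted p = 0.113 by edgeR). MRPL42 differed least between libraries, at 110 and 114 CPM with FB23-2 and 115 and 115 CPM in control (-0.03 ± 0.05). Of the 25 genes, 12 were called in at least 1 of the 13 alternatives.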
